A study of Mus musculus with 12 samples.

Results

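Tight junctions, adherens junctions and desmosomes hold neighbouring cells together, and the mRNAs of 49 genes of these junctions were followed in C18-4 cells, an immortalized mouse line used as a model of spermatogonial stem cells. The genes were taken by name from a list that was set with earlier results of these data known, and fall into 7 classes: 9 claudins, 3 MARVEL proteins, 4 junctional adhesion molecules (JAMs), 8 nectins and cell adhesion molecules (CADMs, with Vcam1), 9 cadherins and catenins, 6 desmosomal genes and 10 scaffold genes. Of the 49 genes, 46 were found among the 17576 genes of the table, and Cldn5, Cadm3 and Cdh13 were not analysed here. A level of at least 1 RPKM (reads scaled to the length of the gene and to the mapped reads of the library) in at least 3 libraries was reached by 32 of them, which were tested, and 14 lay below it.

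The series holds 12 RNA-seq libraries of C18-4 cells, split evenly over 4 groups (n = 3). The knockdown group (KD) carried shRNAs against lncRNA5251 in the lentiviral vector LV3, and 3NC was the control of that vector. The overexpression group (OV) carried lncRNA5251 in the vector LV5, and 5NC was the control of that vector. The strain is given as IRC mouse in the labels of all groups, and all cells had been stably transfected, so every group, controls included, carried a vector. Nothing in the sources says that the 3 libraries of a group came from separate cultures, so the p-values measure the spread between these libraries, which may be technical.

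Claudins and the MARVEL proteins (occludin, tricellulin and MarvelD1) are membrane proteins of tight junctions, where claudins form the seal and its ion pores. JAMs, nectins and CADMs are immunoglobulin-like adhesion molecules that bind partners on the next cell. Classical cadherins bind each other across the gap and are tied to actin through p120-catenin (Ctnnd1), beta-catenin (Ctnnb1) or plakoglobin (Jup), and alpha-catenin (Ctnna1). Desmosomes join keratin filaments of neighbouring cells through desmogleins, desmocollins, plakophilins and desmoplakin, and scaffolds such as ZO-1 (Tjp1) and cingulin (Cgn) link membrane proteins to the cytoskeleton and to polarity complexes. In the testis, Sertoli cells build the blood-testis barrier from these parts, and spermatogonia lie below it.

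A supplementary table of the study names 3 shRNAs for knockdown of lncRNA5251, shown here because their matches could bear on junction genes. The sources differ on whether 2 or 3 shRNAs were mixed for C18-4 cells, and 1 supplementary heading on these cells names another lncRNA. Which of the sequences KD carried is therefore not certain.
shRNA 1: gctgggacttaatgtccttct
shRNA 2: gcatgggcaattcaaacaaat
shRNA 3: gcttattatgcatcgtaaacc
Among 141767 GENCODE mouse transcripts, each had an exact match in Purb alone, and 0 junction genes of the 49 were matched. Purb was measured at 33.6 ± 0.624 RPKM (SD, n = 3) in 3NC and 9.32 ± 0.806 in KD, against 30.7 ± 1.46 in 5NC and 27.1 ± 5.30 in OV, so the gene that the shRNA sequences match was lower in KD. OV replicates 1 and 2 (23.9 and 24.2 RPKM) lay below the 5NC libraries (29.2 to 32.1), and OV replicate 3 (33.2) above them. The level of lncRNA5251 itself was not analysed here, and neither the knockdown nor the overexpression could be checked on it.

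Promoters of the junction genes were read from the RefSeq table for GRCm38.p6, which holds 250 bases before to 50 after each gene's start, and 31 of the 49 genes had an entry. They were searched for the E2-box (CAGGTG, or CACCTG on the other strand), the hexamer bound by Snail and ZEB repressors of junction genes, and for the AP-1 word TGANTCA, and neither motif overlaps the other. The E2-box was held by 18 of the 42 promoters of junction genes (42.9%) against 20.2% of all 32851 promoters, and the AP-1 word by 4 (9.52%) against 7.81%. By gene, the E2-box was found for 8 of 19 tested junction genes with an entry and for 7 of 10 below 1 RPKM, so it was not kept to genes that were read at a higher level. Of the 8 tested genes with an E2-box, 4 were higher in KD than in 3NC (F11r, Cadm4, Dsp and Pkp4), Pard6b was lower and Nectin2, Pard3 and Magi1 did not pass. Of the 11 tested genes without one, 6 were higher and 3 lower, where 31.9% of all genes tested were higher and 23.5% lower. These are counts of letters in a window, several genes have more than 1 listed start with overlapping windows, and no binding was measured. These promoters are printed 5′ to 3′, with the matched words in capitals, those of F11r, Cadm4 and Dsp because each holds an E2-box and the gene was higher in KD, that of Cldn15 because the gene differed most between the vector controls, and that of Cldn4 as a gene with both words that was hardly read.
F11r, chr1:171437311-171437610, plus strand: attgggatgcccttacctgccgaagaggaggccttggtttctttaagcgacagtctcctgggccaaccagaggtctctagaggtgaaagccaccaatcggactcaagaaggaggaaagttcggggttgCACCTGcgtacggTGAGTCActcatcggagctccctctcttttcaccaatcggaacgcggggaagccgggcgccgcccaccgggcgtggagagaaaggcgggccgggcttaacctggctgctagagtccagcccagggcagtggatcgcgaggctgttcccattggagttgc
Cadm4, chr7:24481773-24482072, plus strand: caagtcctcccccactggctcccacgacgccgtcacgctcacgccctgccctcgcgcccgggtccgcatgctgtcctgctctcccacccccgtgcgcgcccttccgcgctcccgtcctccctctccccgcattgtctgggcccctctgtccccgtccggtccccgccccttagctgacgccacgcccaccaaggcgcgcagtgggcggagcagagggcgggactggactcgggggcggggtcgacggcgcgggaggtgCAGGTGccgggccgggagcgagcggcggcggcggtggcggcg
Dsp, chr13:38151044-38151343, plus strand: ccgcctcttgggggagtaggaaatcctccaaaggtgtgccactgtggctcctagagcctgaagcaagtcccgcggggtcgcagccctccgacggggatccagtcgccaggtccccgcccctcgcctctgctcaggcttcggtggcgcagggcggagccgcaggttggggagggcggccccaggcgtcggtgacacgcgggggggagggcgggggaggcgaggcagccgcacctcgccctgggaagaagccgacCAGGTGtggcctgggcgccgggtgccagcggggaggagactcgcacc
Cldn15, chr5:136967619-136967918, plus strand: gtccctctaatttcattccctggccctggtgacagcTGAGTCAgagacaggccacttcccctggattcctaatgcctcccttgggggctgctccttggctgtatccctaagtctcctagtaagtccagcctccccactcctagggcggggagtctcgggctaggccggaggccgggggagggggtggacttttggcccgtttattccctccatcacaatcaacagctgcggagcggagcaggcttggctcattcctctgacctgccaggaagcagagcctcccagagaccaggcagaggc
Cldn4, chr5:134946885-134947184, minus strand: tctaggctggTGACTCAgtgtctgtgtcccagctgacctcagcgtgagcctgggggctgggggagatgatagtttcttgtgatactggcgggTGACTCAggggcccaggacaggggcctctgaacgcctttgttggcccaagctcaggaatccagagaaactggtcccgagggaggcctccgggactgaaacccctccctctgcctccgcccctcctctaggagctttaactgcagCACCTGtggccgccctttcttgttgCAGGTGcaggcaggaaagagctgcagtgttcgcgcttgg
With +1 as the first base after the start, the E2-box began at -122 in F11r, 9 in Cadm4 and 4 in Dsp, and the AP-1 word at -109 in F11r and -214 in Cldn15. The Cldn4 promoter held E2-boxes at -14 and 12 and AP-1 words at -240 and -158.

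Summed over all genes, a library held between 533099 and 580920 RPKM. Depth in reads is unknown, and from the steps of low values the libraries differed in relative depth from 0.945 to 1.05. Of 20 spermatogonial markers 18 were in the table and 3 were tested (Uchl1, Etv5 and Id4), and 14 of them, among them Ret, Ddx4, Gfra1, Kit and Pou5f1, stayed below 0.2 RPKM in every library, so the defining germ cell markers were absent or nearly so. All 3 tested ones were lower in KD than in 3NC by limma, as were 23.5% of all genes tested: Etv5 (-1.40, adjusted p = 2.16e-09), Id4 (-0.40, adjusted p = 0.00143) and Uchl1 (-0.24, adjusted p = 0.00525). In 5NC against 3NC, Etv5 was also lower (-1.11, limma adjusted p = 1.80e-08), Uchl1 was higher (0.24, limma adjusted p = 0.00563) and Id4 did not pass. Uchl1 was read at 89.2 to 93.1 RPKM in 5NC and 104.6 to 122.7 in OV, where Etv5 and Id4 did not pass. Of the Sertoli list, 5 of 10 genes in the table were tested: Wt1 was read at 49.8 to 57.5 RPKM and Gata4 at 3.98 to 6.77, while Sox9 stayed at or below 0.03 and Amh at or below 0.15. Clu had a mean of 2.80 RPKM in 3NC against 5.86 in KD, and of 6.82 in 5NC against 7.55 in OV. The means of Rhox5 in the same order were 2.89, 2.52, 0.913 and 0.940. Markers of other cell types moved between groups. The summed RPKM of the mesenchymal list (9 of 11 genes in the table tested, Myh11 below 0.2 RPKM) was 868 to 911 in 3NC and 975 to 1074 in KD, with 1103 to 1146 in 5NC and 1166 to 1263 in OV, and that of the epithelial list (5 of 9 tested, Ovol1 and Esrp1 below 0.2 RPKM) was 319 to 328, 324 to 360, 272 to 294 and 364 to 442. Endothelial markers (0 of 5 tested) summed to at most 1.07, the Leydig list (1 of 4 tested) to at most 2.39, and of the leukocyte list Cd68 alone was tested, with sums of 4.14 to 5.67 in 3NC and 1.36 to 2.93 in the other groups. Members of the mesenchymal list, whose sum is mostly Vim and Col1a1, went opposite ways in KD against 3NC. Of the 9 tested, 6 were higher (66.7%, against 31.9% of all genes tested), Acta2 most (8.52 to 18.6 RPKM). Fn1 alone was lower (8.28 to 3.45), which is 11.1%, against 23.5% of all genes tested. Dcn was at 21.6 RPKM in 3NC and 112 in 5NC. The part of these markers in the junction results was not tested. OV replicate 3 lay closer to 5NC than the other OV libraries did for 20 of the 32 tested junction genes (62.5%) and for 56.3% of all genes tested, so the counts and called values of OV are given with and without it. KD replicate 3 lay closest to 3NC of the KD libraries for 16 of the 32 genes (50%) and for 33.8% of all genes tested, and without it 16 junction genes were higher and 5 lower in KD. The shares of all genes tested without KD replicate 3 were not computed.

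The junction genes of C18-4 cells ranged over a wide scale, from 0 to 259 RPKM, as the plot of levels by class shows. In 3NC the highest were the catenins Ctnnb1 (227 ± 3.24 RPKM, SD, n = 3) and Ctnna1 (173 ± 1.59), followed by Nectin2 (59.5 ± 1.86), Ctnnd1 (56.8 ± 1.0), F11r (51.8 ± 0.314) and Cdh2 (51.7 ± 0.626). Nectin2 and Ctnnd1 overlapped at this level, since their 3NC libraries spanned 57.7 to 61.4 and 55.9 to 57.9 RPKM, and F11r and Cdh2 overlapped as well. N-cadherin (Cdh2) and P-cadherin (Cdh3, 19.5 ± 0.335) were read in place of E-cadherin, as Cdh1 did not exceed 0.07 RPKM in any library although it is the next protein-coding gene after Cdh3 on chromosome 8.

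The barrier-forming members were mostly missing. Of 8 claudins in the table Cldn12 (27.7 ± 0.645 RPKM in 3NC) and Cldn15 (0.83 ± 0.0173) were tested, while Cldn3, Cldn4, Cldn6, Cldn7 and Cldn11 stayed at or below 0.15 RPKM in every library. Cldn1 was read at 0.04, 0.08 and 0.04 in 3NC and 0.04, 0.1 and 0.04 in KD against 0.47, 0.32 and 0.27 in 5NC and 0.38, 0.26 and 0.26 in OV, so the LV5 groups lay above the LV3 groups without overlap, but below the filter. Occludin (Ocln) lay between 0.10 and 0.24 RPKM, tricellulin (Marveld2) at or below 0.03, and Marveld1 was the MARVEL gene that was read. Desmoglein 2 (Dsg2) and desmocollin 2 (Dsc2), the desmosomal cadherins of the list, did not exceed 0.03 and 0.01 RPKM, whereas their plaque proteins plakophilin 2 (Pkp2, 18.6 ± 0.469), plakophilin 4 (Pkp4, 13.9 ± 0.192) and desmoplakin (Dsp, 1.41 ± 0.2) were present.

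The remaining genes below the filter were Esam (at most 0.19 RPKM), an endothelial JAM relative, Cadm2 (at most 0.17) and the scaffold Tjp3, which encodes ZO-3. Tjp3 was read at 0.86, 0.83 and 0.71 RPKM in 3NC and 1.46, 1.28 and 0.93 in KD, with 0.84, 0.52 and 0.46 in 5NC and 0.42, 0.35 and 0.35 in OV, and passed 1 RPKM in only 2 libraries, both KD. Cadm2 was 0.06, 0.05 and 0.03 in 3NC and 0.08, 0.12 and 0.17 in KD, with 0.08, 0.12 and 0.08 in 5NC and 0.04, 0.02 and 0.04 in OV, without overlap between KD and 3NC or between OV and 5NC, at levels where single reads weigh heavily. Proteins of Ocln, Dsg2, Cldn11, Cdh1 and Cadm2 were stained in these cells by the study, and their mRNAs were all among those below the filter. By that staining, the study reported the proteins of Ocln, F11r, Vcam1 and Cadm2 as increased in KD. For the proteins of Dsg2, Cldn11 and Cdh1 it reported no significant change. Of the tested genes, Cldn15, Jam2 and Perp were not at 1 RPKM in every library: Cldn15 reached it in 0 of 3 libraries of 3NC and 2 of KD, Jam2 in 2 of OV, and Perp in 0 of KD.

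**Figure D1:**
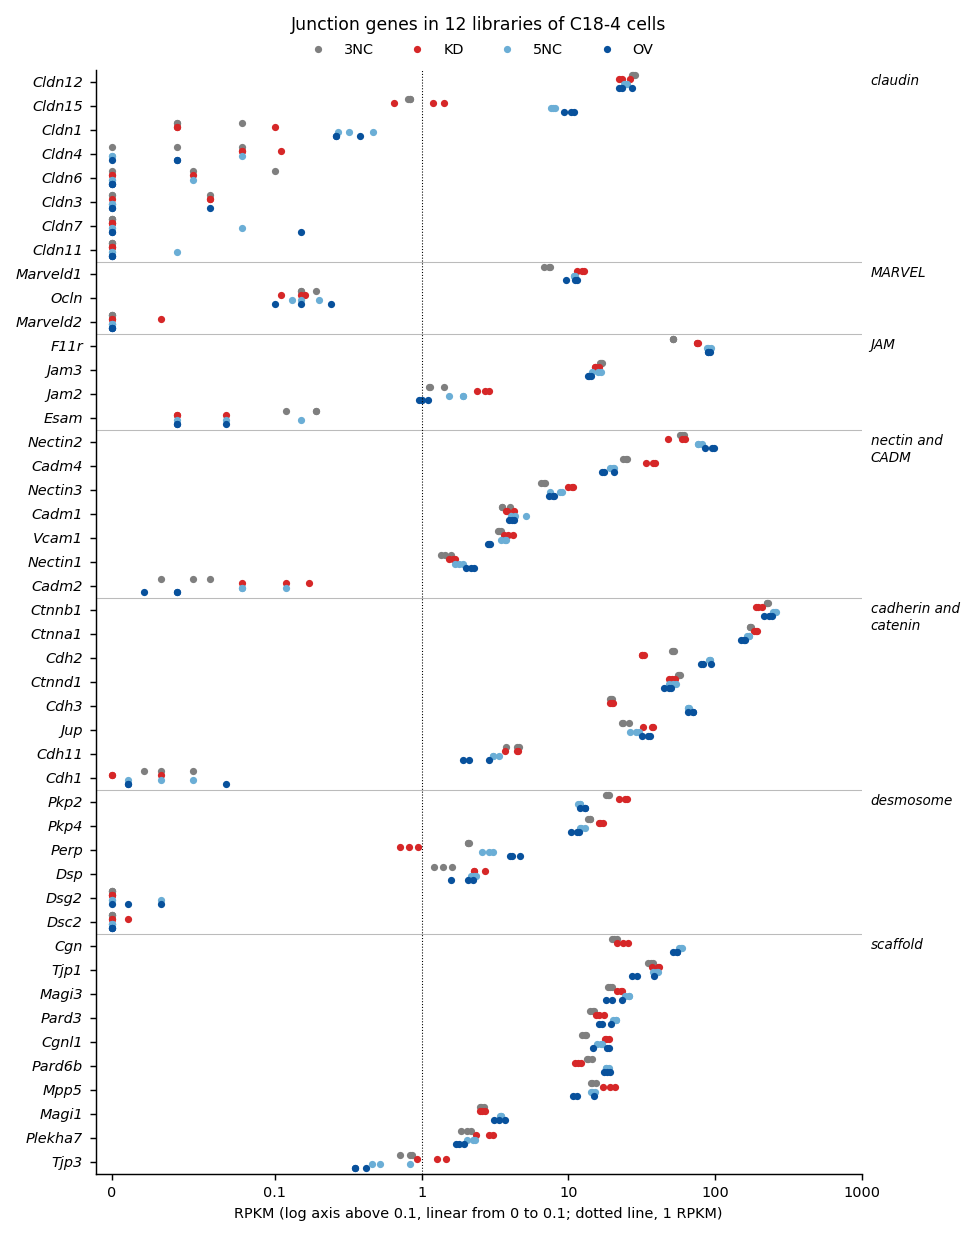
RPKM of the 46 junction genes in the table, 1 row per gene and 1 point per library, in colours for 3NC, KD, 5NC and OV, on an axis that is logarithmic above 0.1 and linear below. The 14 genes that were not tested lie mostly left of the dotted line at 1 RPKM, and Cldn15, Cdh3 and Cgn split by vector, with 5NC and OV to the right of 3NC and KD.

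Knockdown was compared with its vector control to ask which junction genes differed where shRNAs against lncRNA5251 were expressed. Of the 32 tested genes, 15 were higher in KD than in 3NC (46.9%, against 31.9% of all genes tested), 6 were lower (18.8%, against 23.5%) and 11 passed in neither direction, by limma on log2(RPKM + 1) with Benjamini-Hochberg adjustment at an adjusted p of at most 0.05. The share of higher genes lay above that of the whole table and the share of lower genes below it. The median log2 fold change of the 32 was 0.16, beside 0.04 over all genes tested. At the stricter threshold of the study (adjusted p up to 0.001 with a log2 fold change of 1 or more in either direction), limma called 0 junction genes, while 1.57% of all genes passed it. That count is on the log2(RPKM + 1) scale, and with a pseudocount of 0.1 it was 2, Jam2 and Perp. An unadjusted limma p under 0.05 was reached by 23 of the 32, and by 6910 of all 11435 genes tested. The largest difference in either direction was 2.52-fold in the ratio of mean RPKM (Perp).

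Of the 3 tested JAMs 2 were higher, as was the 1 tested MARVEL gene, where 31.9% of all genes tested were. JAM-B (Jam2), a partner of JAM-C in adhesion, was read at 1.12, 1.43 and 1.15 RPKM in 3NC and 2.4, 2.7 and 2.86 in KD. All KD libraries lay above all 3NC libraries, a 2.15-fold difference of means and a log2 fold change of 0.71 (SE 0.09, limma adjusted p = 7.36e-06). JAM-A (F11r), the JAM of epithelial tight junctions, was 52.04, 51.4 and 51.8 in 3NC and 76.1, 74.9 and 75.95 in KD. The groups were far apart and each was tight, and the log2 fold change was 0.54 (SE 0.04, limma adjusted p = 3.27e-08). JAM-C (Jam3) was 16.7 ± 0.323 RPKM in 3NC and 15.6 ± 0.603 in KD, and the log2 fold change of -0.10 did not pass the test (interval -0.22 to 0.02). Marveld1 was 7.39, 7.54 and 6.82 RPKM in 3NC and 12.7, 12.4 and 11.5 in KD. It rose 1.68-fold with no overlap, a log2 fold change of 0.68 (SE 0.07, limma adjusted p = 9.34e-07).

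Among nectins and CADMs, 2 of 6 rose (33.3%, close to the 31.9% of all genes tested). Nectin-3 (Nectin3), which in the testis joins Sertoli cells and spermatids, was 6.52, 6.81 and 6.89 RPKM in 3NC and 10.6, 9.99 and 10.7 in KD, a log2 fold change of 0.57 (SE 0.07, limma adjusted p = 6.62e-06). Cadm4 was 24.7, 25.1 and 23.7 in 3NC and 37.97, 39.3 and 33.95 in KD, a log2 fold change of 0.58 (SE 0.07, limma adjusted p = 6.19e-06), and both genes were higher in every KD library. Nectin1, Nectin2, Cadm1 and Vcam1 did not pass. Vcam1, the ligand of an integrin on leukocytes whose protein the study stained, was 3.37, 3.31 and 3.48 in 3NC and 3.64, 4.21 and 3.87 in KD, without overlap, and its log2 fold change was 0.16 (SE 0.07, limma adjusted p = 0.0554). Without KD replicate 1 its value was 0.20 (limma adjusted p = 0.0382), so the call turned on that library. In Nectin2, KD replicate 3 stood apart at 47.5 RPKM beside 62.1 and 59.4.

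Cadherins and catenins moved in both directions. N-cadherin (Cdh2), the cadherin with the highest level in these cells, was 51.8, 52.2 and 50.98 RPKM in 3NC and 31.9, 31.6 and 32.98 in KD. It fell to 0.623 of its 3NC mean, a log2 fold change of -0.67 (SE 0.05, limma adjusted p = 6.62e-08), and the spread within each group was small. P-cadherin (Cdh3) was 19.5, 19.2 and 19.9 in 3NC and 19.8, 20.2 and 19.4 in KD, a log2 fold change of 0.02 with an interval of -0.08 to 0.11. Plakoglobin (Jup), the catenin shared by adherens junctions and desmosomes, was 23.6, 23.2 and 25.8 in 3NC and 37.6, 37.4 and 32.5 in KD, a log2 fold change of 0.55 (SE 0.07, limma adjusted p = 1.05e-05). Beta-catenin (Ctnnb1), also the effector of canonical Wnt signalling, was 231, 225 and 225 in 3NC and 196, 191 and 208 in KD, a log2 fold change of -0.19 (SE 0.05, limma adjusted p = 0.00360). The share of Jup in the sum of Jup and Ctnnb1 was 9.64 ± 0.554% (SD, n = 3) in 3NC and 15.3 ± 1.56% in KD, and the groups did not overlap. Changes of Ctnna1 (0.13, SE 0.04, limma adjusted p = 0.0127) and Ctnnd1 (-0.15, SE 0.05, limma adjusted p = 0.0258) on the log2 scale were smaller. Quantile normalization ended the call of Ctnna1 (0.11, limma adjusted p = 0.0574). That of Ctnnd1 no longer passed without 3NC replicate 1 or 2 or KD replicate 2 or 3 (adjusted p = 0.0582 to 0.0828).

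All 4 tested desmosomal genes changed, 3 higher and 1 lower, where 31.9% of all genes tested were higher and 23.5% lower. Pkp2 was 18.98, 18.1 and 18.7 RPKM in 3NC and 22.03, 24.4 and 25.1 in KD, a log2 fold change of 0.34 (SE 0.06, limma adjusted p = 0.000128). Desmoplakin (Dsp), the linker to keratin filaments, was 1.22, 1.62 and 1.4 in 3NC and 2.7, 2.27 and 2.26 in KD, a log2 fold change of 0.50 (SE 0.10, limma adjusted p = 0.000423), and the third gene that rose was Pkp4 (0.24). Perp moved the other way. This membrane protein of desmosomes, also known as a target of p53, was 2.07, 2.06 and 2.12 in 3NC and 0.71, 0.95 and 0.82 in KD, a fall to 0.397 of the 3NC mean and a log2 fold change of -0.76 (SE 0.08, limma adjusted p = 1.61e-06). It was the only one of the 32 genes read below 1 RPKM in all KD libraries and above it in all of 3NC. Krt18, a keratin to which desmosomes attach, was 67.9, 70.2 and 64.3 in 3NC and 96.8, 100.2 and 96.05 in KD, a log2 fold change of 0.53 (SE 0.05, limma adjusted p = 1.14e-06). The other keratins of the epithelial list differed from it and from each other: Krt19, at a mean of 250 RPKM in 3NC, did not pass (-0.11, SE 0.07, limma adjusted p = 0.191), Krt8 did not either (-0.06, SE 0.11, limma adjusted p = 0.670), and Krt7 rose (1.75, SE 0.13, limma adjusted p = 5.47e-08) from a mean of 0.770 RPKM.

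Of the 9 tested scaffold genes 5 rose (55.6%, against 31.9% of all genes tested) and 1 fell (11.1%, against 23.5%). Paracingulin (Cgnl1), a cingulin relative of tight and adherens junctions, was 12.4, 13.2 and 13.0 RPKM in 3NC and 17.9, 18.9 and 18.2 in KD, a log2 fold change of 0.48 (SE 0.07, limma adjusted p = 6.66e-05). Pals1 (Mpp5), a core member of the Crumbs polarity complex, was 14.4, 15.4 and 14.5 in 3NC and 19.3, 17.3 and 20.9 in KD, a log2 fold change of 0.35 (SE 0.10, limma adjusted p = 0.00539). Plekha7, Magi3 and Cgn were the other 3 that rose, with log2 fold changes of 0.32, 0.20 and 0.18. Against 5NC, Magi3 (-0.17) and Cgn (-1.28) were lower in KD. Without 3NC replicate 1, 13 junction genes were higher, and some of Pkp4, Plekha7, Magi3 and Cgn lost the call. Pard6b, of the PAR polarity complex, was the scaffold gene that fell, from 13.7, 14.6 and 13.3 to 11.6, 11.1 and 12.2, a log2 fold change of -0.24 (SE 0.06, limma adjusted p = 0.00253). ZO-1 (Tjp1) was 36.6, 37.6 and 34.8 in 3NC and 40.9, 36.96 and 41.2 in KD, and its log2 fold change of 0.12 (SE 0.09, limma adjusted p = 0.274) did not pass. Of the claudins, Cldn12 was 27.5, 28.4 and 27.2 in 3NC and 23.4, 22.1 and 26.5 in KD, a log2 fold change of -0.21 (SE 0.07, limma adjusted p = 0.0266) that was lost without 3NC replicate 1 or 2 or KD replicate 1 or 2 (adjusted p = 0.0553 to 0.12). Cldn15 did not pass, and its KD libraries, 1.43, 1.2 and 0.65, lay on both sides of 3NC.

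**Figure D2:**
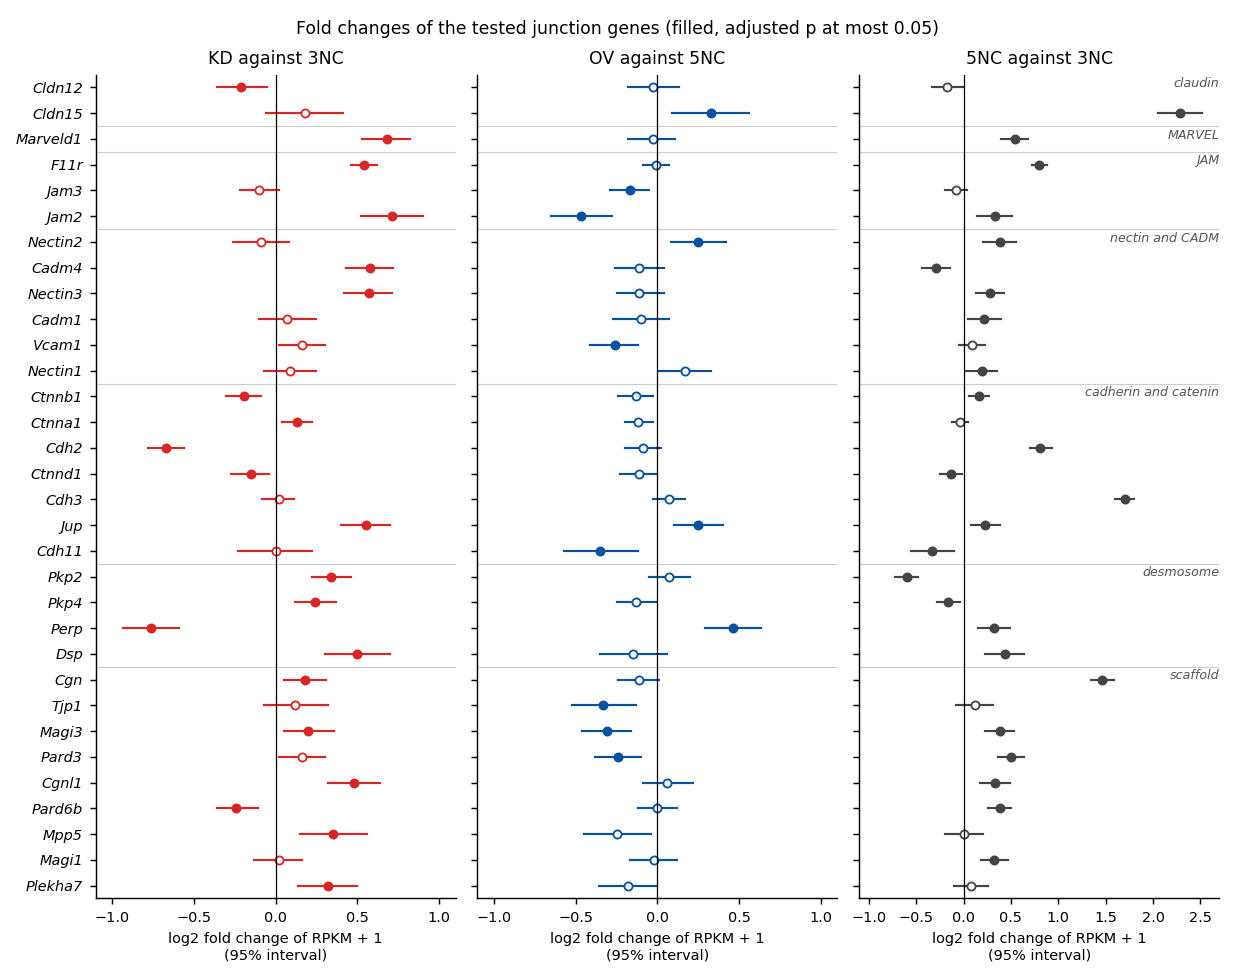
Log2 fold changes of RPKM + 1 (x axis) with 95% intervals for the 32 tested junction genes (rows, by class) in 3 panels (KD against 3NC, then OV against 5NC, then the controls 5NC against 3NC), filled where the adjusted p was at most 0.05. Filled points on the right are more frequent in KD against 3NC (15) and 5NC against 3NC (20) than in OV against 5NC (4), and the x axis of the last panel is wider to hold Cldn15, Cdh3 and Cgn.

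Overexpression was compared with its own vector control, 5NC. Of the 32 genes, 4 were higher in OV (12.5%, against 8.07% of all genes tested), 7 were lower (21.9%, against 13.9%) and 21 passed in neither direction by the same limma test. The median log2 fold change was -0.11, beside -0.03 over all genes tested. At the stricter threshold limma called 0 junction genes, the same 0% as in the whole table. An unadjusted limma p under 0.05 was reached by 16 of the 32, and by 4240 of all 11435 genes tested. The counts depended on single libraries. Without OV replicate 3, 13 junction genes were lower and 4 higher, where 21.9% and 14.6% of all genes tested were, and without 5NC replicate 2, 2 were lower and 1 higher. Leaving out 5NC replicate 3, OV replicate 1 or OV replicate 2 gave 1 higher gene and 4, 3 and 3 lower genes, and leaving out 5NC replicate 1 gave 2 higher and 5 lower. Except without OV replicate 3, the shares of all genes tested were not computed for these fits. Whether the drops were particular to junction genes was not tested.

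With all libraries Jam2 and Perp changed most, and the values of both held in the limma test without any 1 library. Without OV replicate 3, Tjp1 and Cdh11 (both -0.47 on the log2 scale) changed more than Jam2 (-0.44). Jam2 was 1.55, 1.93 and 1.93 RPKM in 5NC and 1.11, 1.01 and 0.96 in OV, a log2 fold change of -0.47 (SE 0.09, limma adjusted p = 0.00356). Perp was 2.86, 2.6 and 3.09 in 5NC and 4.7, 4.02 and 4.16 in OV, a log2 fold change of 0.46 (SE 0.08, limma adjusted p = 0.00241). In both genes OV and 5NC did not overlap. The scaffold Magi3 was 24.5, 26.02 and 25.7 in 5NC and 18.1, 19.8 and 23.2 in OV, a log2 fold change of -0.31 (SE 0.07, limma adjusted p = 0.00880) that passed without each library in turn. Tjp1 was 37.6, 40.9 and 40.02 in 5NC and 27.1, 29.6 and 38.3 in OV, a log2 fold change of -0.33 (SE 0.09, limma adjusted p = 0.0233). OV replicate 3 stood near 5NC in both scaffold genes, and the call of Tjp1 was lost without 5NC replicate 2 or 3 or OV replicate 1 or 2 (adjusted p = 0.0697 to 0.114). Pard3, the PAR complex scaffold, was the third lower scaffold gene (-0.24). By the counts of lower genes, its call was also lost without 5NC replicate 2 or 3 or OV replicate 1 or 2. Without OV replicate 3 the log2 fold changes were -0.44 for Jam2, 0.48 for Perp, -0.41 for Magi3, -0.47 for Tjp1 and -0.32 for Pard3, and each passed the limma test.

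The other called genes were 4 adhesion molecules, the claudin Cldn15 and the catenin Jup. Vcam1 was 3.73, 3.79 and 3.49 RPKM in 5NC and 2.9, 2.95 and 2.83 in OV, a log2 fold change of -0.26 (SE 0.07, limma adjusted p = 0.0156), lost without 5NC replicate 2 (adjusted p = 0.0641) and after quantile normalization, where it was -0.16 (limma adjusted p = 0.121). Jup was 30.1, 28.9 and 26.5 in 5NC and 36.1, 34.9 and 31.6 in OV, a log2 fold change of 0.25 (SE 0.07, limma adjusted p = 0.0208), lost without 5NC replicate 2 or 3 or OV replicate 1 or 2 (adjusted p = 0.0564 to 0.0932). F11r was 93.97, 90.2 and 88.8 in 5NC and 89.6, 92.4 and 89.3 in OV, and its log2 fold change of -0.01 had an interval of -0.09 to 0.07. Nectin2, Cldn15, Cdh11 and Jam3 were called at an adjusted p between 0.0301 and 0.0452. Nectin2 was 76.5, 81.6 and 76.1 in 5NC and 97.96, 95.1 and 85.5 in OV (0.25 on the log2 scale), and Cldn15 was 7.91, 8.17 and 7.67 and 10.9, 10.4 and 9.37 (0.33). Cdh11, a mesenchymal cadherin, was 3.07, 3.39 and 3.09 and 2.1, 1.93 and 2.9 (-0.35), and Jam3 was 16.7, 16.1 and 14.6 and 14.2, 13.7 and 13.8 (-0.17). The groups did not overlap in these genes, but Nectin2, Cldn15 and Cdh11 were called by limma only with all libraries or without OV replicate 3, and Jam3 only with all libraries or without 5NC replicate 3 or OV replicate 3. The largest adjusted p with 1 library left out was 0.148 for Nectin2, 0.158 for Cldn15, 0.138 for Cdh11 and 0.145 for Jam3. Quantile normalization also ended the calls of Nectin2 (0.21, limma adjusted p = 0.0776), Cdh11 (-0.25, limma adjusted p = 0.0972) and Jam3 (-0.13, limma adjusted p = 0.111). Without OV replicate 3 the log2 fold changes were -0.25 for Vcam1, 0.31 for Jup, 0.30 for Nectin2, 0.38 for Cldn15, -0.47 for Cdh11 and -0.17 for Jam3, each past the limma test.

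The 2 control groups, which differ in the vector, differed in most junction genes. Of the 32 genes, 20 were higher in 5NC than in 3NC (62.5%, against 31.0% of all genes tested), 5 were lower (15.6%, against 25.6%) and 7 passed in neither direction, and the median was 0.25 on the log2 scale beside 0.02 over all genes. At the stricter threshold limma called 3, against 2.61% of all genes tested, which were Cldn15, Cdh3 and Cgn. Cldn15, a claudin that forms sodium channels in the gut, was 0.84, 0.81 and 0.84 RPKM in 3NC and 7.91, 8.17 and 7.67 in 5NC, a 9.54-fold difference of means and a log2 fold change of 2.28 (SE 0.11, limma adjusted p = 2.32e-10). P-cadherin (Cdh3) was 19.5, 19.2 and 19.9 in 3NC and 65.5, 66.3 and 65.5 in 5NC, 3.37-fold, with a log2 fold change of 1.70 (SE 0.05, limma adjusted p = 8.68e-13). Cingulin (Cgn), a cytoplasmic plaque protein of tight junctions, was 19.97, 21.4 and 20.5 in 3NC and 56.8, 58.9 and 59.9 in 5NC, 2.84-fold, with a log2 fold change of 1.46 (SE 0.06, limma adjusted p = 3.48e-11). In each of these genes KD stayed with 3NC and OV with 5NC, so for these genes the libraries split by vector. They were named because they differed most between the controls, and this split did not hold for all junction genes. Marveld1, Dsp and Cgnl1 were higher in KD than in 3NC. Against 5NC, their log2 fold changes in KD of 0.14, 0.06 and 0.15 did not pass the limma test.

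Cdh2 and F11r had the next largest differences between the controls. Cdh2 was 90.98, 92.1 and 91.8 RPKM in 5NC, against 51.8, 52.2 and 50.98 in 3NC, a log2 fold change of 0.81 (SE 0.05, limma adjusted p = 5.08e-09). F11r was 93.97, 90.2 and 88.8 against 52.04, 51.4 and 51.8, a log2 fold change of 0.80 (SE 0.04, limma adjusted p = 2.54e-10). Marveld1 (0.54, SE 0.07, limma adjusted p = 8.86e-06), Pard3 (0.50, SE 0.07, limma adjusted p = 1.41e-05) and Dsp (0.44, SE 0.10, limma adjusted p = 0.00119) were also higher in 5NC. So were Jam2 (0.33), Nectin2 (0.38), Nectin3 (0.28) and Perp (0.32). The 5 lower genes were Pkp2, Cdh11, Cadm4, Pkp4 and Ctnnd1. Pkp2 was 12.1, 12.1 and 11.7 in 5NC against 18.98, 18.1 and 18.7 in 3NC, a log2 fold change of -0.60 (SE 0.06, limma adjusted p = 4.48e-07), and Cadm4 was 20.1, 20.4 and 19.1 against 24.7, 25.1 and 23.7, a log2 fold change of -0.29 (SE 0.07, limma adjusted p = 0.00253). The calls of Cdh11 (-0.33, SE 0.11, limma adjusted p = 0.0151), Pkp4 (-0.16, SE 0.06, limma adjusted p = 0.0290) and Ctnnd1 (-0.13, SE 0.05, limma adjusted p = 0.0478) were each lost without 1 or more single libraries, which left 2 lower genes without 3NC replicate 2 or 3 and 3 without 3NC replicate 1 or 5NC replicate 1. Vector, culture and time of the 2 controls cannot be told apart with these groups.

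**Figure D3:**
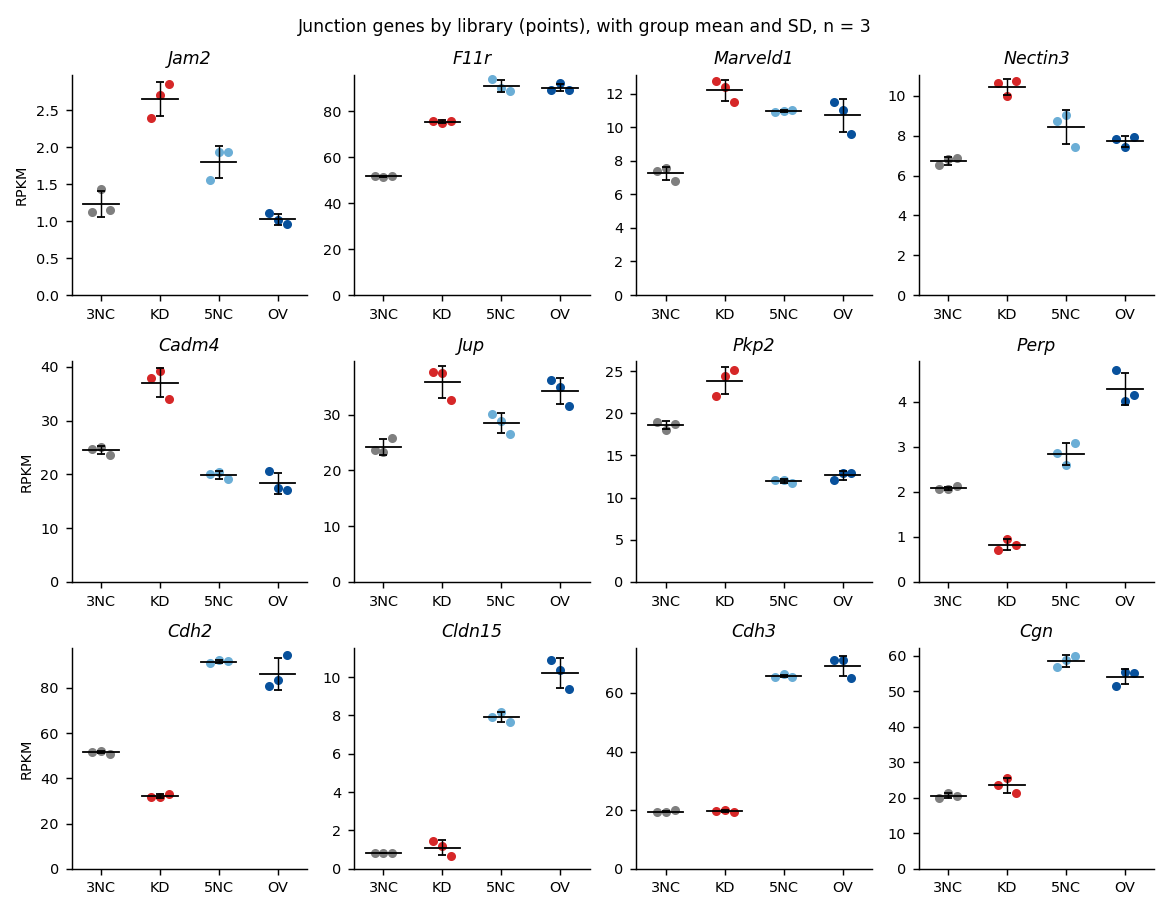
RPKM (y axis, from 0) of 12 junction genes in each library of 3NC, KD, 5NC and OV, with points for libraries and bars for the mean and SD of 3. Jam2, Cadm4, Nectin3 and Pkp2 were highest in KD, Perp and Cdh2 were lowest in KD, and Cldn15, Cdh3 and Cgn were low in 3NC and KD and high in 5NC and OV.

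The composition of 3 junction families differed with these genes. N-cadherin made up 68.4 ± 0.797% (SD, n = 3) of the summed RPKM of Cdh1, Cdh2, Cdh3 and Cdh11 in 3NC and 57.3 ± 0.685% in KD, with 57.0 ± 0.159% in 5NC and 54.6 ± 3.03% in OV, and P-cadherin 25.9 ± 0.508%, 35.2 ± 1.12%, 41.0 ± 0.107% and 43.9 ± 3.29%. The share of P-cadherin was thus higher in KD than in 3NC although its level differed little, and the N-cadherin level in the sum was lower. Cldn12 made up 96.5 ± 0.108% of claudin RPKM in 3NC and 94.8 ± 1.75% in KD, but 74.6 ± 0.349% in 5NC and 69.3 ± 3.90% in OV, where Cldn15 held 24.1 ± 0.575% and 29.5 ± 3.66%. JAM-A made up 74.0 ± 0.0998% of JAM RPKM in 3NC and 80.5 ± 0.269% in KD, with 83.7 ± 0.432% in 5NC and 85.8 ± 0.455% in OV. By class, the JAM sum was 69.4 to 70.4 RPKM in 3NC and 92.9 to 94.8 in KD, with 106 to 112 in 5NC and 104 to 107 in OV. The desmosome sum was 35.8 to 36.3, 42.0 to 44.9, 29.1 to 30.0 and 28.8 to 31.2, so it was highest in KD. These shares and sums are given as a description and were not tested.

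**Figure D4:**
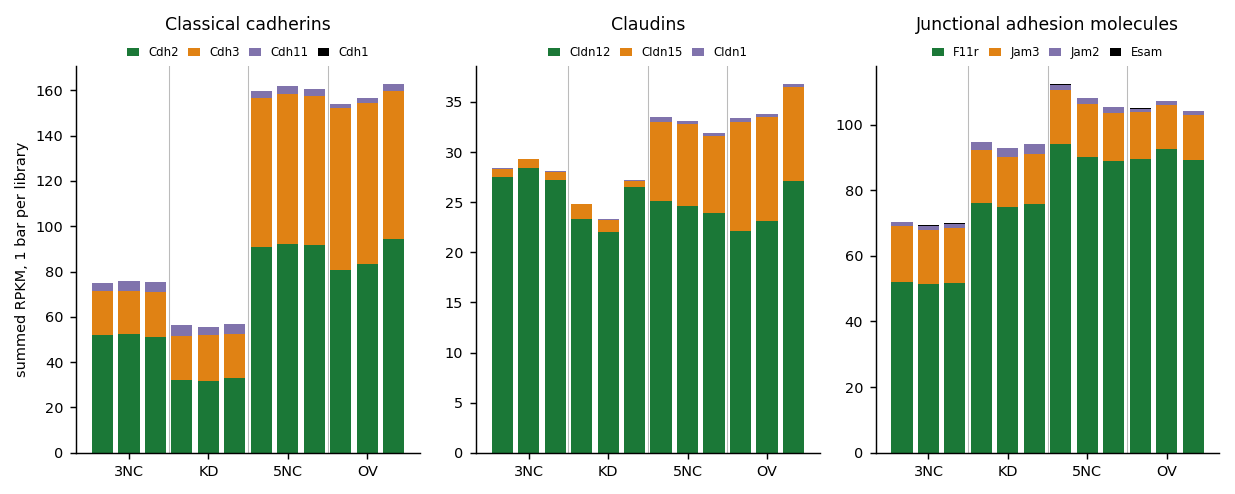
Summed RPKM (y axis, from 0) of classical cadherins, claudins and JAMs, 1 stacked bar per library in the order 3NC, KD, 5NC and OV, with colours for genes. Claudins below 0.2 RPKM in every library are left out. The Cdh3 and Cldn15 segments are thick in 5NC and OV and thin in 3NC and KD, and the Cdh2 segment is shortest in KD.

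Whether the response to knockdown differed from that to overexpression was tested as the difference of the 2 effects, each against its own vector control. This difference was above 0 for 18 of the 32 genes (56.2%, against 31.2% of all genes tested), below 0 for 4 (12.5%, against 20.7%) and passed in neither direction for 10. Its median was 0.29, beside 0.07 over all genes tested. At the stricter threshold limma called 2, Jam2 and Perp, against 2.87% of all genes tested. Jam2 rose in KD and fell in OV, and the effects differed by 1.18 (SE 0.12, limma adjusted p = 2.66e-06) on the log2 scale. Perp fell in KD and rose in OV, and the effects differed by -1.22 (SE 0.11, limma adjusted p = 8.12e-07). With all libraries, Jam2, Perp and Magi3 were called in opposite directions in KD and OV, and Jup passed in the same direction in both, with 0.55 in KD and 0.25 in OV. Without OV replicate 3 the called OV values of Mpp5 (-0.38), Ctnna1 (-0.14) and Pkp4 (-0.16) were also opposite to those of KD, and those of Cdh2 (-0.16), Ctnnb1 (-0.18) and Ctnnd1 (-0.15) had the same direction. The effects of Jup differed by 0.29 (SE 0.10, limma adjusted p = 0.0220), a call lost without 3NC replicate 1 or 2, 5NC replicate 1 or KD replicate 1 or 2 (adjusted p up to 0.0585).

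In other genes the effects differed where, with all libraries, KD passed and OV did not. Marveld1 (0.71, SE 0.10, limma adjusted p = 2.66e-05), Cadm4 (0.69, SE 0.10, limma adjusted p = 4.63e-05), Nectin3 (0.67, SE 0.10, limma adjusted p = 5.24e-05), Dsp (0.64, SE 0.14, limma adjusted p = 0.00110) and F11r (0.55, SE 0.06, limma adjusted p = 1.74e-06) differed upward, and Cdh2 (-0.58, SE 0.07, limma adjusted p = 1.52e-05) differed downward. In Mpp5 (0.60, SE 0.13, limma adjusted p = 0.00175), Magi3 (0.52, SE 0.10, limma adjusted p = 0.000629), Tjp1 (0.45, SE 0.13, limma adjusted p = 0.00982) and Vcam1 (0.42, SE 0.10, limma adjusted p = 0.00186) the knockdown value was above 0 and the overexpression value below; of these, Magi3 passed against both controls, Mpp5 in KD alone with all libraries and in OV as well without OV replicate 3, and Tjp1 and Vcam1 in OV alone. The lower calls of Nectin2 (-0.33), which passed in OV and not in KD, and Pard6b (-0.24) were each lost without single libraries, and 2 genes were below 0 without OV replicate 2. Where a gene passed in 1 of the comparisons with a control and the difference of effects did not pass, as in Cdh11 and Cldn15 (adjusted p = 0.0634 and 0.430), a difference between the responses was not shown.

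**Figure D5:**
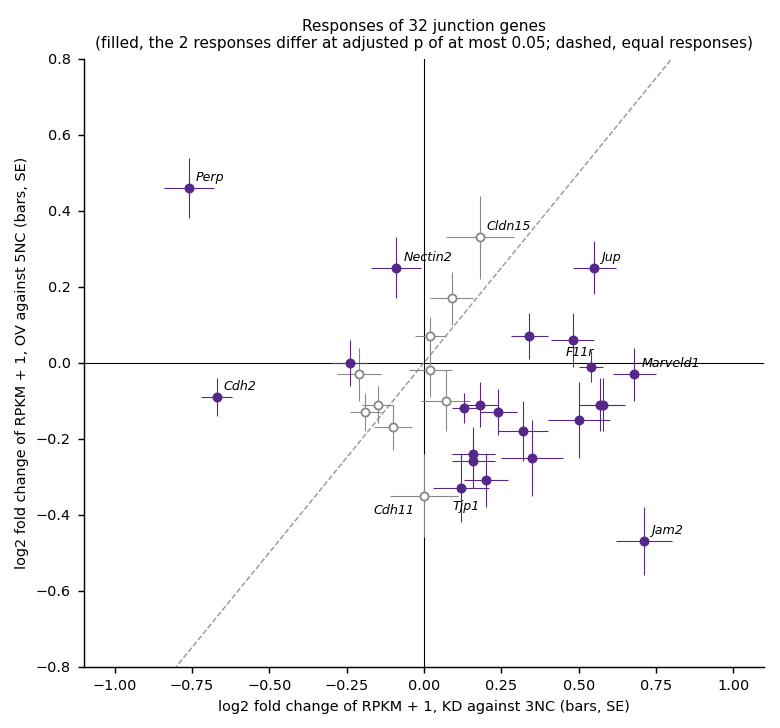
Log2 fold change of RPKM + 1 in KD against 3NC (x axis) and in OV against 5NC (y axis) for the 32 tested junction genes, with SE bars, filled where the 2 responses differed at an adjusted p of at most 0.05. Jam2 lies lower right (0.71 and -0.47) and Perp upper left (-0.76 and 0.46), and most filled points lie right of and below the dashed line of equal responses.

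With 5NC in place of 3NC as the control of KD, 10 junction genes were higher (34.0% of all genes tested were) and 12 lower (31.4% of all), and 5 passed the stricter threshold (Cldn15, Cdh2, Cdh3, Cgn and Perp, all lower in KD), as did 3.55% of all. The median log2 fold change of the 32 was -0.02, beside 0.02 over all genes. Of the 15 genes higher against 3NC, 9 were also higher against 5NC, 3 passed in neither direction and 3 turned, F11r, Cgn and Magi3. Of the 6 lower genes, 4 were lower against both. How many of all genes tested kept, lost or turned their call was not counted. F11r was higher in KD against 3NC (0.54) and lower against 5NC, a log2 fold change of -0.26 (SE 0.04, limma adjusted p = 2.97e-05). Cgn went from 0.18 (limma adjusted p = 0.0172) to -1.28 (limma adjusted p = 1.34e-10) and Magi3 from 0.20 (limma adjusted p = 0.0242) to -0.17 (limma adjusted p = 0.0420). Marveld1 (0.14, SE 0.07, limma adjusted p = 0.0812), Dsp (0.06, SE 0.10, limma adjusted p = 0.591) and Cgnl1 (0.15, SE 0.07, limma adjusted p = 0.0922) no longer passed. Jam2 (0.38, SE 0.09, limma adjusted p = 0.00135), Nectin3 (0.29, SE 0.07, limma adjusted p = 0.00201), Jup (0.32, SE 0.07, limma adjusted p = 0.000961), Cadm4 (0.86, SE 0.07, limma adjusted p = 5.07e-08) and Pkp2 (0.94, SE 0.06, limma adjusted p = 2.35e-09) were higher in KD against either control, and Cdh2 (-1.48, SE 0.05, limma adjusted p = 7.16e-12) and Perp (-1.08, SE 0.08, limma adjusted p = 2.27e-08) lower. The comparisons of KD share the KD libraries, and KD and 5NC differ in vector as well as in shRNA.

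A list of 77 other genes of cell junctions was read for the surroundings of these members, of which 71 were in the table and 37 were tested. In KD against 3NC, 18 were higher (48.6%, against 31.9% of all genes tested) and 7 lower (18.9%, against 23.5%), with a median log2 fold change of 0.13 beside 0.04 over all genes. The highest was Arvcf, a p120-catenin relative, at 8.24, 8.16 and 8.88 RPKM in 3NC and 18.7, 19.8 and 16.2 in KD, a log2 fold change of 1.03 (SE 0.07, limma adjusted p = 1.43e-08) and the only gene of this list past the stricter threshold. Alcam, an immunoglobulin-like adhesion molecule, was 1.21, 1.23 and 1.28 and 2.54, 3.07 and 3.28 (0.82, SE 0.09, limma adjusted p = 2.13e-06), and Prkcz, the atypical kinase of the PAR complex, was 2.48, 2.54 and 2.5 and 4.85, 5.12 and 4.84 (0.76, SE 0.07, limma adjusted p = 5.73e-07). The largest falls were those of the neuronal cadherin Cdh10 (-0.46, SE 0.07, limma adjusted p = 8.28e-05) and of the actin crosslinkers Actn1 (-0.36, SE 0.04, limma adjusted p = 7.26e-06) and Actn4 (-0.36, SE 0.06, limma adjusted p = 8.60e-05). In OV against 5NC, 4 of the 37 were higher (10.8%, against 8.07%) and 8 lower (21.6%, against 13.9%). Without OV replicate 3 the list gave 5 higher (13.5%, against 14.6%) and 14 lower (37.8%, against 21.9%).

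Of 20 transcription factors and splicing factors that govern epithelial junction programs, 19 were in the table and 13 were tested. In KD against 3NC 2 were higher (15.4%, against 31.9% of all genes tested) and 7 lower (53.8%, against 23.5%), at a median log2 fold change of -0.22. In OV against 5NC, Zeb1 (-0.43, SE 0.07, limma adjusted p = 0.00229) and Tcf4 (-0.28, SE 0.06, limma adjusted p = 0.00608) were the genes of this list that passed, both lower (15.4%, against 13.9% of all genes tested lower and 8.07% higher). Without OV replicate 3, Zeb1 (-0.52), Tcf4 (-0.27) and Zeb2 (-0.34) were lower (23.1%, against 21.9%). Those that fell were both repressors of Cdh1 and regulators of epithelial genes. Zeb2 was 7.37, 8.07 and 7.37 RPKM in 3NC and 4.24, 3.56 and 4.8 in KD, a log2 fold change of -0.73 (SE 0.12, limma adjusted p = 0.000111). Snail (Snai1) was 6.6, 7.56 and 7.02 and 4.16, 4.29 and 3.63, a log2 fold change of -0.68 (SE 0.08, limma adjusted p = 4.97e-06), and Slug (Snai2) was 3.4, 2.63 and 3.07 and 1.88, 1.37 and 1.85, a log2 fold change of -0.58 (SE 0.11, limma adjusted p = 0.000285). Zeb1, which belongs to the same group of repressors, rose from 8.99 ± 0.281 to 11.6 ± 0.676 RPKM (0.34, SE 0.07, limma adjusted p = 0.00143), as did the epithelial factor Elf3 (0.54, SE 0.13, limma adjusted p = 0.00211). Elf3 met the filter on low values only through the KD libraries (1.32, 1.69 and 1.2 RPKM), so its call is not support for a rise. The splicing factor Esrp2 (-0.30, SE 0.09, limma adjusted p = 0.0112) and the Krüppel-like factors Klf4 (-0.28, SE 0.08, limma adjusted p = 0.00648) and Klf5 (-0.36, SE 0.07, limma adjusted p = 0.000616), all of epithelial programs, fell, as did Tcf3 (-0.22, SE 0.07, limma adjusted p = 0.0210), an E-protein that also binds E-boxes. The epithelial regulators Ovol1 and Esrp1 stayed at or below 0.10 and 0.04 RPKM and Grhl2 at or below 0.63, and Cdh1 remained at or below 0.05 RPKM in 3NC and 0.03 in KD. Snai1 was 3.68, 3.63 and 3.38 RPKM in 5NC, so that its KD level was not lower than that of the other control. Whether any of these factors bound or changed a junction gene was not tested.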

How the data were processed

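The 12 libraries were grouped by their labels, and their replicate numbers were read from the same labels. The authors deposited 1 table of RPKM values for 17576 genes; per the study's methods, reads of oligo(dT)-enriched mRNA were mapped with SOAPaligner and converted to RPKM, and the genome build is not given in the sources used here. The table gives no absolute read depth, so counting error could not be computed, and biases of length or GC content within a library remain.

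From the deposited RPKM, log2(RPKM + 1) was taken for 11435 genes, those that reached 1 RPKM in 3 or more libraries. limma 3.58.1 (R 4.3.3; lmFit, eBayes with trend) was fitted to all libraries with a group term, and the Benjamini-Hochberg adjustment ran over all genes tested. A fold change on this scale understates that of low genes. Figures were drawn with matplotlib 3.10.9 (Python 3.11.15).

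The 49 genes, the classes, the lists of other junction genes, regulators and cell type markers, and the tests were chosen with earlier results of these data known. Junction genes were named if they passed the stricter threshold, if they were among the 2 highest or 2 lowest of their class in a comparison, or if the study stained their protein; genes named beyond this rule, such as the keratins, Klf4, Klf5 and Esrp2, were chosen after their values were seen. The shRNA sequences were taken from a supplementary table and matched to GENCODE vM21 transcripts. Alternatives were a pseudocount of 0.1, no filter, a filter of 5 RPKM, quantile normalization, a fit of only the 6 libraries compared, a replicate block, 5NC as the control of KD, and each library left out in turn.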

Additional observations from a re-analysis of the deposited data

How the results depend on the processing

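Values of named genes were recomputed 1017 times under the alternatives other than a change of control: 934 kept their direction and side of the threshold, 78 lost the call, 3 gained one and 2 changed sign. With a pseudocount of 0.1, 2 junction genes passed the stricter threshold in KD against 3NC, Jam2 and Perp. Without the filter on low values 2 were higher in OV, with a filter of 5 RPKM 0 passed the stricter threshold for the difference of effects (Jam2 and Perp are below that filter), and in a fit to the 6 libraries of OV and 5NC 4 were lower. With 5NC as the control of KD, 12 were lower and 5 passed the stricter threshold; of 30 named values 22 held, 6 lost the call and 2 changed sign, F11r (-0.26) and Snai1 (0.14). Among the other junction genes, Cgn (-1.28) and Magi3 (-0.17) also turned, with a call against both controls.

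With 1 library left out in turn, KD against 3NC gave 13 to 16 higher and 4 to 6 lower genes, OV against 5NC 1 to 4 higher and 2 to 13 lower, 5NC against 3NC 17 to 20 higher and 2 to 4 lower, and the difference of effects 17 to 19 above and 2 to 5 below 0. Of these fits, the shares of all genes tested were computed only for OV against 5NC without OV replicate 3. F11r in OV against 5NC ranged from -0.03 to 0.02. A group left with 2 libraries shares the spread of the others in these fits.

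Same-numbered libraries of different groups had correlations of -0.18 to 0.35 between their deviations from the group means, with 5 of 18 pairs over 0.1, so the numbers were not taken as pairs. A replicate block gave 15 higher and 6 lower junction genes in KD against 3NC, and of the named values it ended 1 call, Ctnnd1 in 5NC against 3NC (-0.13, adjusted p = 0.0570). Quantile normalization moved the median of all genes by less than 0.1 and ended 5 calls of named genes, Ctnna1 in KD against 3NC (0.11, adjusted p = 0.0574) and Jam3, Nectin2, Vcam1 and Cdh11 in OV against 5NC. It also added calls in OV against 5NC. Ctnna1 (-0.20, limma adjusted p = 0.0124) and Ctnnb1 (-0.22, limma adjusted p = 0.0187) became lower, and Nectin1 (0.26, limma adjusted p = 0.0289) higher. Depth in reads is unknown, so the error of genes near 1 RPKM, such as Jam2, Perp and Cldn15, could not be split into counting and other error.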
